A study of Mus musculus with 8 samples.

Results

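The genes described here encode the integrin subunits whose receptors read the RGD motif, the tripeptide arginine, glycine and aspartate, in fibronectin and in the propeptide of latent TGFβ. They are the α chains Itgav, Itga5, Itga8 and Itga2b and the β chains Itgb1, Itgb3, Itgb5, Itgb6 and Itgb8. The 9 genes were found by their symbols among the 55471 genes of the count table, and none of these symbols was repeated. RNA was sequenced from SV-LECs, an SV40-immortalized line of mouse lymphatic endothelial cells that came from adventitia of the mesentery. Untreated cells were compared with cells kept for 72 h in 10 ng/ml TGFβ1, with 4 libraries in each group, to see how the cytokine changes expression in lymphatic endothelium. All libraries came from this single immortalized line, and the study describes the samples of a group as technical replicates, so every SD and p-value below covers technical spread and not that between independent experiments. In bulk RNA, fewer cells of a type and less RNA per cell cannot be told apart.

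Each integrin is a pair of one α and one β chain that spans the membrane, binds matrix outside and couples to talin, kindlin and actin inside. The αv chain pairs with all of the β chains named here, α5 and α8 pair with β1, and αIIb, the product of Itga2b, pairs with β3. The pairs αvβ6 and αvβ8 bind the RGD motif of the latency-associated peptide and release active TGFβ, whereas α5β1 is the classical fibronectin receptor that assembles fibronectin fibrils.

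The β chains differ at their inner end, and the last 150 coding bases before the stop codon are shown for that reason. Capitals mark codons for NPxY, a motif to which talin binds. The sequences come from the GENCODE M21 principal transcripts on GRCm38, each is spread over 2 exons, and the spans include the intron between them: Itgb1 at chr8:128726100-128732085 on the + strand, Itgb3 at chr11:104665546-104667142 on the + strand, Itgb5 at chr16:33947825-33948749 on the + strand, Itgb6 at chr2:60600488-60605193 on the - strand and Itgb8 at chr12:119163120-119163366 on the - strand.
Itgb1: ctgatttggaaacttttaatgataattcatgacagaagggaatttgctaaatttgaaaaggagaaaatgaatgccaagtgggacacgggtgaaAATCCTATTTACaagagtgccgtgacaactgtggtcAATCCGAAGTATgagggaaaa
Itgb3: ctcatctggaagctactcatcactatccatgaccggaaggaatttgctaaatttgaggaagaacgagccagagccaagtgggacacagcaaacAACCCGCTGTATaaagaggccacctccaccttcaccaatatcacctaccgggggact
Itgb5: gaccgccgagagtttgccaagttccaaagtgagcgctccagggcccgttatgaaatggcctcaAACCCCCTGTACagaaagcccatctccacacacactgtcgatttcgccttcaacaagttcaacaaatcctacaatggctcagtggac
Itgb6: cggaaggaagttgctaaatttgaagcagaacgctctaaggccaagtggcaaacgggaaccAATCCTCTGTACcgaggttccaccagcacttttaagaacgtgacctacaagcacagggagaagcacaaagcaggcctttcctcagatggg
Itgb8: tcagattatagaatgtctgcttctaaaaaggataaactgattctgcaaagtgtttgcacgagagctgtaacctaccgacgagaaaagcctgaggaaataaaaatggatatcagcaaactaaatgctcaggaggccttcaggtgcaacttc
The window of Itgb1 held 2 such stretches, those of Itgb3, Itgb5 and Itgb6 held 1 each, and that of Itgb8 held 0. The looser form NxxY, which includes NPxY, had 2 matches each in Itgb1, Itgb3, Itgb5 and Itgb6 and 0 in Itgb8.

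TGFβ1 raised the RNA of the fibronectin and vitronectin receptor chains and lowered that of Itgb8. Of the 9 genes, 7 had enough counts to be tested, 6 of them rose and 1 fell at an FDR of 0.05 in edgeR's likelihood ratio test. Across all 13818 genes tested, 37.6% rose and 38.0% fell, 75.6% in all, so a call is common in these data and the sizes of the changes carry more information than their number. The median log2 fold change was 0.58 over the 7 genes and -0.01 over all genes tested. In each of the 7 genes the 4 treated libraries lay wholly above or wholly below the 4 untreated ones, which was also the case for 69.8% of all genes tested, 34.7% with the treated libraries above and 35.1% with them below. The exact two-sided permutation test gave p = 0.0286 for each, the smallest value that 4 against 4 libraries can give.

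**Figure D1:**
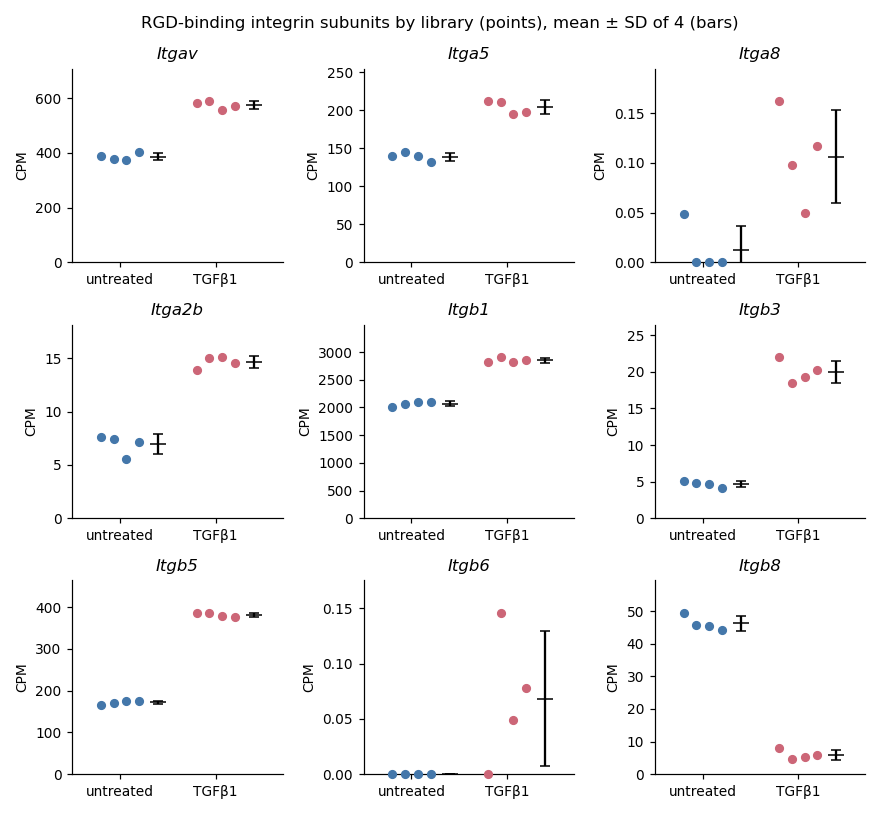
CPM (counts per 1000000, linear axis from 0) of the 9 RGD-binding integrin subunits in each of the 4 untreated and 4 TGFβ1-treated libraries (points), with the mean and SD of each group (black bars, not drawn below 0). The groups do not overlap in 7 genes, of which Itgb8 alone is lower after TGFβ1, and Itga8 and Itgb6 stay at or under 3 counts in every library.

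Itgb8 (ENSMUSG00000025321, chr12:119158022-119238802, - strand, GRCm38) encodes the β chain that presents latent TGFβ to its receptors when paired with αv. It was read 1028, 1221, 1041 and 870 times in the untreated libraries and 146, 94, 107 and 152 times in the treated ones. Scaled to CPM, counts per 1000000 of the normalized library size, the levels were 49.5, 45.9, 45.5 and 44.1 without TGFβ1 and 7.90, 4.58, 5.26 and 5.90 with it. The lowest untreated library was far above the highest treated one, which was replicate 1, and the treated libraries varied more among themselves, with a coefficient of variation of 24.2%. The mean went from 46.2 ± 2.32 to 5.91 ± 1.43 CPM (SD, n = 4), which is 7.86-fold lower, with a log2 fold change of -2.97 (SE 0.101, 95% interval -3.17 to -2.78, FDR 8.06e-199). It was the 56th largest fall among the genes tested, and falls of more than 1 on the log2 scale were called in 6.56% of genes. The values kept their direction and their call in 16 of 16 alternative fits, in which the log2 fold change was between -3.13 and -2.88.

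Itgb6 (ENSMUSG00000026971, chr2:60598292-60722643, - strand) encodes the β chain of αvβ6, an RGD integrin of epithelia that also activates latent TGFβ. It had 0 counts in every untreated library and 0, 3, 1 and 2 counts in the treated libraries. The floor, set at 3 counts in a library, was worth between 0.113 and 0.162 CPM and covers counting error only, so Itgb6 was not above it in any library and no fold is given. Of 9 epithelial markers 4 had enough counts to be tested, of which 2 rose, 1 fell and 1 was not called, with a median log2 fold change of 1.03 and a summed level of 39.5 to 49.1 CPM in untreated and 43.5 to 51.3 CPM in treated libraries. Most of that sum was Krt14, a basal keratin that has 37.1 ± 2.41 CPM in untreated and 38.8 ± 2.72 CPM in treated libraries, while Epcam, a surface marker of epithelia, had between 0 and 7 counts. The keratins of simple epithelia Krt8 and Krt18 rose from 2 to 12 and from 2 to 8 counts per library to 17 to 35 and 16 to 47 counts (FDR 5.35e-10 and 2.33e-11), and Krt19 fell by 0.31 on the log2 scale. Krt8 and Krt18 passed the filter on low counts only through their treated libraries, and 75.6% of all genes tested were called. The part of these cell type markers in the values of Itgb6 was not tested.

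The β3 chain moved the other way and by more than any other of the 7 genes that rose or fell, apart from Itgb8. Itgb3 (ENSMUSG00000020689, chr11:104608000-104670476, + strand) encodes the partner of αv in the vitronectin receptor and of αIIb in the fibrinogen receptor of platelets. Its levels were 5.06, 4.77, 4.67 and 4.16 CPM in the untreated and 22.1, 18.5, 19.2 and 20.3 CPM in the treated libraries. The treated libraries were all several times above the untreated ones and close to each other. The mean rose 4.28-fold from 4.67 ± 0.376 to 20.0 ± 1.53 CPM, with a log2 fold change of 2.10 (SE 0.101, 95% interval 1.90 to 2.30, FDR 3.55e-101).

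Itgb5 (ENSMUSG00000022817, chr16:33829665-33949338, + strand) encodes a further vitronectin-binding partner of αv. It had 167, 171, 175 and 175 CPM in the untreated and 385, 387, 380 and 375 CPM in the treated libraries. The replicates were within a few percent of each other on both sides and the groups were well apart. The mean rose 2.22-fold from 172 ± 4.12 to 382 ± 5.19 CPM, with a log2 fold change of 1.15 (SE 0.0377, FDR 7.45e-199). Rises of more than 1 on the log2 scale were called in 10.9% of all genes tested, and Itgb3, Itgb5 and Itga2b were the members among them.

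Itgb1 (ENSMUSG00000025809, chr8:128685654-128733200, + strand) encodes the common β chain that pairs with α5, α8, αv and many chains that do not read RGD. It had 2001, 2056, 2091 and 2103 CPM in the untreated and 2815, 2914, 2824 and 2851 CPM in the treated libraries. The groups did not overlap and the rise of the mean was 1.38-fold, from 2063 ± 45.4 to 2851 ± 44.6 CPM, with a log2 fold change of 0.47 (SE 0.0368, FDR 7.31e-36).

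Among the α chains, Itgav and Itga5 rose by nearly the same factor. Itgav (ENSMUSG00000027087, chr2:83724397-83806916, + strand), the α chain of the vitronectin-type and TGFβ-activating receptors, had 388, 378, 375 and 404 CPM in the untreated and 583, 590, 557 and 572 CPM in the treated libraries. Its mean rose 1.49-fold from 386 ± 13.2 to 575 ± 14.2 CPM, with a log2 fold change of 0.58 (SE 0.0404, FDR 6.72e-45). Itga5 (ENSMUSG00000000555, chr15:103344286-103366763, - strand), the α chain of the fibronectin receptor, had 140, 145, 140 and 132 CPM in the untreated and 212, 211, 196 and 197 CPM in the treated libraries. Its mean rose 1.47-fold from 139 ± 5.33 to 204 ± 8.87 CPM, with a log2 fold change of 0.55 (SE 0.0461, FDR 4.97e-32). Both α chains separated the groups without overlap. The ratio of Itga5 to Itgav counts within a library was -1.47 ± 0.10 without and -1.50 ± 0.035 with TGFβ1 on the log2 scale. The difference of -0.02 had an exact 95% interval of -0.14 to 0.16 (exact permutation p = 0.714), and the groups overlapped.

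Itga2b (ENSMUSG00000034664, chr11:102453297-102470122, - strand) encodes the αIIb chain, which is known from platelets and their precursors. It had 7.61, 7.47, 5.59 and 7.15 CPM in the untreated and 14.0, 15.0, 15.2 and 14.6 CPM in the treated libraries. Untreated replicate 3 was the lowest, and all treated libraries lay above all untreated ones. The mean rose 2.11-fold from 6.96 ± 0.932 to 14.7 ± 0.534 CPM, with a log2 fold change of 1.08 (SE 0.0994, FDR 4.56e-27). Of 8 other platelet and megakaryocyte markers, 0 had enough counts to be tested and 7 were at or under 3 counts in every library. The remaining one, the platelet chemokine Ppbp, reached 9 counts in 1 treated library. Their summed level was 0 to 0.131 CPM in untreated and 0.0487 to 0.595 CPM in treated libraries, well under the level of Itga2b.

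Itga8 (ENSMUSG00000026768, chr2:12106632-12301922, - strand) encodes the α chain of the nephronectin receptor, known from kidney and smooth muscle. It had 1, 0, 0 and 0 counts in the untreated and 3, 2, 1 and 3 counts in the treated libraries, all at or under the floor, and no fold is given. Without a filter on low counts, edgeR's likelihood ratio test called Itga8 at an FDR of 0.0149 on a total of 1 against 9 counts and Itgb6 at 0.0106 on 0 against 6 counts. DESeq2 gave an adjusted p of 0.0804 for Itga8 and none for Itgb6.

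To compare levels between genes, CPM were divided by the exonic length in kilobases, which gives RPKM. In untreated cells the order of RPKM was Itgb1 with 506 ± 11.1, Itgb5 with 48.5 ± 1.16, Itgav with 36.0 ± 1.23, Itga5 with 28.2 ± 1.08, Itgb8 with 4.18 ± 0.209, Itga2b with 1.28 ± 0.171 and Itgb3 with 0.791 ± 0.0636. No neighbours in this order overlapped in their libraries. In treated cells Itgb1 led with 699 ± 10.9 RPKM, followed by Itgb5 with 107 ± 1.46, Itgav with 53.5 ± 1.32, Itga5 with 41.4 ± 1.80, Itgb3 with 3.39 ± 0.259, Itga2b with 2.69 ± 0.0980 and Itgb8 with 0.534 ± 0.129. Itgb8 thus went from above Itgb3 and Itga2b to below both, and again no neighbours overlapped. The order of Itgb5 and Itgav in untreated cells depends on the length used, since with the longest transcript Itgav had 54.8 and Itgb5 52.5 RPKM. The same holds for Itga2b and Itgb3 in treated cells, with 4.27 and 3.46 RPKM.

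The 5 β chains can all pair with αv, and their shares of the summed RPKM within a library do not depend on library scaling. Itgb1 made up 90.4% ± 0.0582 of the sum in untreated and 86.3% ± 0.226 in treated cells (SD, n = 4). The share of Itgb5 went from 8.67% ± 0.0299 to 13.3% ± 0.188, that of Itgb3 from 0.142% ± 0.0142 to 0.419% ± 0.0360 and that of Itgb8 from 0.749% ± 0.0539 to 0.0661% ± 0.0166. Each of these 4 shares separated the groups (exact permutation p = 0.0286, adjusted over the 5 shares 0.0357), with the shares of Itgb5 and Itgb3 higher and those of Itgb1 and Itgb8 lower after TGFβ1 in 4 of 4 libraries. Since β1 also pairs with many other α chains, the shares were therefore also taken without Itgb1, a setting chosen after seeing the data. Of the remaining 4 chains Itgb8 held 7.83% ± 0.521 in untreated and 0.480% ± 0.113 in treated cells, Itgb3 held 1.48% ± 0.140 and 3.05% ± 0.225, and Itgb5 held 90.7% ± 0.652 and 96.5% ± 0.329 (exact permutation p adjusted over 4 shares 0.0381 for each).

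**Figure D2:**
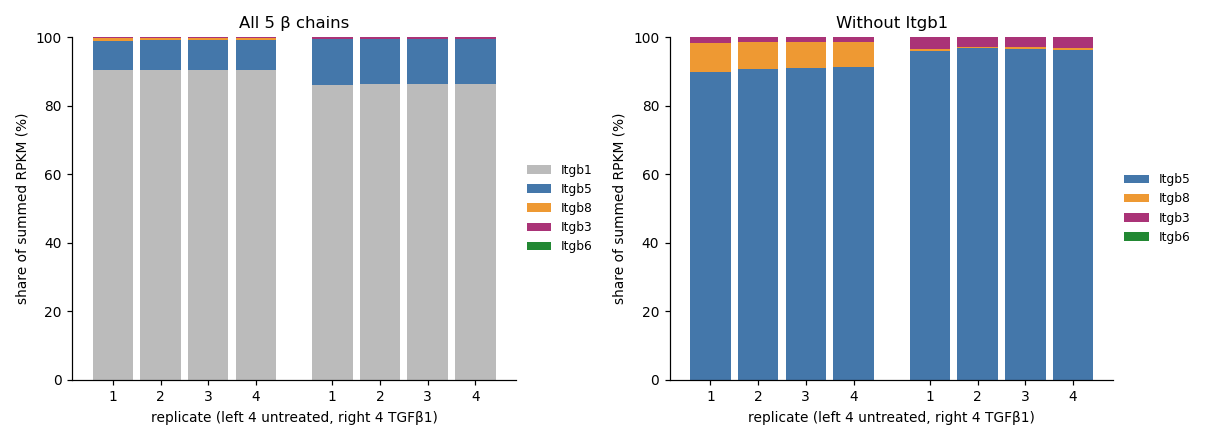
Share of each β chain in the summed RPKM of the chains (percent, stacked bars from 0 to 100) in each of the 8 libraries, with all 5 chains on the left and without Itgb1 on the right. After TGFβ1 the part of Itgb8 without Itgb1 shrinks from a mean of 7.83% to 0.480%, and the parts of Itgb5 and Itgb3 are larger in every treated library.

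Within the β3 and β5 pair, the log2 ratio of Itgb3 to Itgb5 counts was -5.20 ± 0.15 in untreated and -4.25 ± 0.11 in treated cells. The difference of 0.95 had an exact 95% interval of 0.66 to 1.26 (exact permutation p adjusted over the 4 ratios 0.0381). Itgb3 therefore rose more than Itgb5 in relative terms, while Itgb5 remained the more abundant chain by RPKM. The log2 ratio of Itgb1 to Itgav fell from 2.42 ± 0.053 to 2.31 ± 0.029, a difference of -0.11 (interval -0.20 to -0.03, adjusted exact permutation p = 0.0381). The ratio of Itgb8 to Itgb6 has no interpretable value because Itgb6 was at the floor.

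Among the α chains, Itgav held 54.9% ± 1.67 of the summed RPKM in untreated and 54.9% ± 0.513 in treated cells and Itga5 held 43.1% ± 1.71 and 42.4% ± 0.624. The groups overlapped in both (exact permutation p adjusted over 4 shares 0.943 and 0.533). The share of Itga2b was 1.95% ± 0.241 and 2.76% ± 0.158, without overlap, but did not pass the adjusted test (exact permutation p = 0.0286, adjusted 0.114). A share that alone among the 4 reaches the smallest possible p cannot pass this adjustment, so nothing is concluded from it.

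The 18 other integrin subunits include collagen, laminin and leukocyte chains. Of these, 11 were tested, 8 rose and 3 fell, beside 37.6% and 38.0% of all genes tested. Their median log2 fold change was 1.73, beside 0.58 for the 7 RGD-binding chains. Itga2, Itga4, Itgb7 and Itga10 passed the filter on low counts only through their treated libraries, so only a rise could be called. They enter both the count and the median, so neither is weighed against the RGD-binding chains. The largest rises came from genes near the floor without TGFβ1. The collagen receptor chain Itga2 went from 0 to 6 counts in untreated libraries to 87 to 134 counts in treated ones. The leukocyte chains Itgb7 and Itga4 went from 0 to 4 and from 0 to 1 counts to 23 to 32 and 15 to 17 counts. The laminin-binding chains Itga7 and Itga3 fell, with log2 fold changes of -1.05 (FDR 2.48e-39) and -0.58 (FDR 4.48e-44). The collagen-binding chain Itga1 also fell, with -1.18 (FDR 6.24e-38). Others of both kinds rose. On the log2 scale the laminin-binding Itgb4 rose by 2.39 and Itga6 by 1.15, and the collagen-binding Itga11 by 2.29 and Itga10 by 1.71. Itga10 went from 8 to 13 counts in untreated libraries to 23 to 43 counts in treated ones. Among all integrin chains tested, Itgb8 had the largest fall and was the only β chain that fell.

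**Figure D3:**
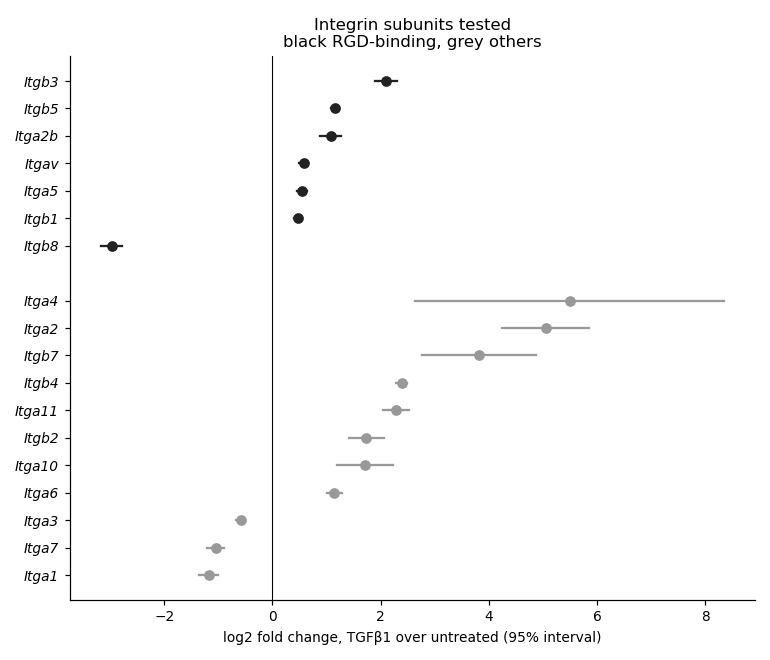
Log2 fold change of TGFβ1-treated over untreated cells with its 95% interval for the 7 RGD-binding subunits (black) and 11 other integrin subunits (grey) that were tested. Itgb8 lies at -2.97, the lowest of all, and the wide intervals at the right belong to Itga4, Itga2 and Itgb7, which had at most 6 counts in any untreated library.

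The coding sequences of Fn1, Vtn, Spp1, Tgfb1 and Tgfb3 carry the RGD motif. It is shown here in windows of 39 bases with the RGD codons in capitals, from GENCODE M21 on GRCm38. The lines give both sites of fibronectin, then vitronectin, osteopontin and the propeptides of TGFβ1 and TGFβ3, the sites at which αv integrins meet the latent complex. Their positions are chr1:71606731-71606769 and chr1:71597428-71597466 on the - strand for Fn1, chr11:78499613-78499729 on the + strand and over 2 exons for Vtn, chr5:104439466-104439504 on the + strand for Spp1, chr7:25697127-25697165 on the + strand for Tgfb1 and chr12:86062150-86062188 on the - strand for Tgfb3.
Fn1: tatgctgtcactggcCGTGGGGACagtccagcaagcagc
Fn1: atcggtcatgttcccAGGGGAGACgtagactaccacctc
Vtn: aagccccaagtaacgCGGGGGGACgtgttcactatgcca
Spp1: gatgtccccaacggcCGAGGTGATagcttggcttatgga
Tgfb1: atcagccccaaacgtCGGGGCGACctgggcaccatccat
Tgfb3: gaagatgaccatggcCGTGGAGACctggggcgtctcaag
The coding sequence of Tgfb2 held 0 RGD motifs.

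Of the 21 genes listed as ligands of these integrins, 13 were tested, 8 rose, 4 fell and 1 was not called. Their median log2 fold change was 0.64. The RGD motif was searched only in Fn1, Vtn and Spp1 of this list. For comparison, 37.6% of all genes tested rose and 38.0% fell. Fn1, the main ligand of α5β1, had 6415 ± 300 CPM in untreated and 9989 ± 627 CPM in treated cells, a log2 fold change of 0.64 (SE 0.0523, FDR 3.05e-33), close to the 0.55 of Itga5 and the 0.47 of Itgb1. In RPKM, Fn1 was at 549 ± 25.7 and 855 ± 53.7. Vtn, which encodes vitronectin, the ligand of αvβ3 and αvβ5, had 0 counts in 7 libraries and 1 count in treated replicate 4. Thrombospondin 1 (Thbs1) and Ccn2, matricellular ligands of αv integrins, rose with log2 fold changes of 2.39 and 2.06, and periostin (Postn) with 1.24. Spp1, which encodes osteopontin, fell from 304 ± 15.0 to 238 ± 28.6 CPM, with a log2 fold change of -0.35 (FDR 1.63e-06). The microfibril gene Fbn2 fell by 2.20 on the log2 scale, Npnt, the ligand of α8β1, by 0.80 and the elastic fibre gene Fbln5 by 0.73.

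The latent TGFβ complex is the substrate of αvβ8. Of its 8 genes 7 were tested, 5 rose, 1 fell and 1 was not called, and the median log2 fold change was 0.31. Among all genes tested 37.6% rose and 38.0% fell, so calls in most genes of a list are usual here. Lrrc32 encodes GARP, the membrane anchor that holds latent TGFβ on the cell surface for αvβ8. It had 6.57 ± 0.422 CPM in untreated and 38.9 ± 1.60 CPM in treated cells, a log2 fold change of 2.56 (SE 0.0785, FDR 1.67e-267), opposite in direction to Itgb8. Its relative Nrros, an anchor of myeloid cells and microglia, had 0 to 4 counts and was not tested. Ltbp1, which ties the latent complex to matrix, rose with a log2 fold change of 0.93, and Ltbp4, which anchors it to elastic fibres, fell with -1.19.

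The ligand genes themselves differed. Tgfb3 rose from 20.0 ± 2.18 to 47.0 ± 4.79 CPM, with a log2 fold change of 1.23 (FDR 3.06e-45). Tgfb1 had 41.4, 38.3, 33.1 and 31.3 CPM in untreated and 41.2, 38.5, 48.0 and 51.5 CPM in treated libraries. It was called higher, with a log2 fold change of 0.31 (FDR 0.00287), although the groups overlapped. Tgfb2 had 107 ± 4.75 and 104 ± 4.11 CPM, with a log2 fold change of -0.05 (FDR 0.359), and the 95% interval of -0.14 to 0.05 bounds its change.

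**Figure D4:**
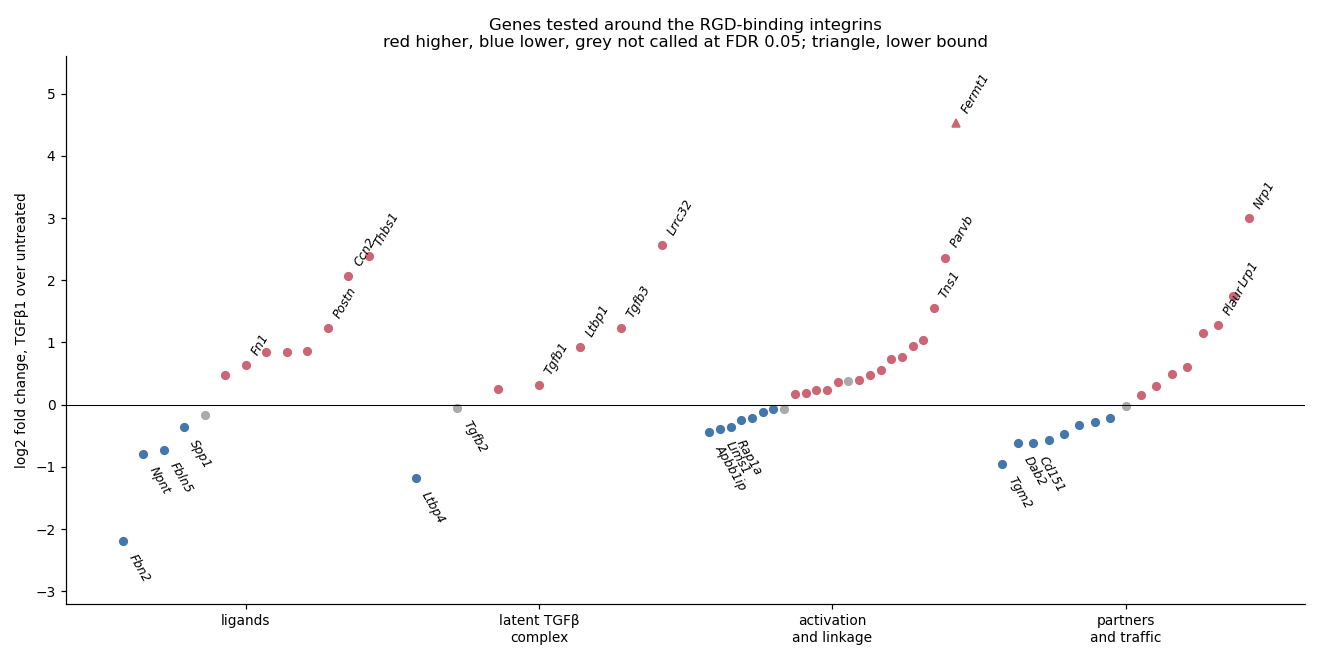
Log2 fold change of TGFβ1-treated over untreated cells for the tested genes of 4 lists around the RGD-binding integrins, each point a gene, ordered within its list (red called higher, blue called lower, grey not called). Lrrc32 at 2.56 and Nrp1 at 2.99 lead their lists, and the triangle of Fermt1 is a lower bound because its untreated libraries held 0 counts.

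All 24 genes of integrin activation and linkage were tested, of which 15 rose, 7 fell and 2 were not called, with a median log2 fold change of 0.30. Calls were made in 75.6% of all genes tested, 37.6% higher and 38.0% lower. The 15 include Fermt1 and Parvb, which passed the filter on low counts only through their treated libraries. Talin 1 (Tln1), the adaptor that binds the NPxY motif and switches integrins on, rose from 384 ± 27.7 to 507 ± 20.6 CPM, with a log2 fold change of 0.40 (FDR 3.94e-13). The kindlins, which bind next to talin, did not move together. Fermt1, the kindlin of epithelia, had 0 counts in all untreated libraries and 51 to 82 counts in the treated ones, at least 23.0-fold higher against a floor of 3 counts per library. Fermt2, the widely expressed kindlin, had 304 ± 4.07 and 288 ± 5.02 CPM, with a log2 fold change of -0.08 and an FDR of 0.0454 that was lost in 9 of 16 alternative fits. Fermt3, the kindlin of blood cells, had 6 to 19 counts per library and was not called (log2 fold change 0.39, FDR 0.216). The actin linker Tns1 rose with a log2 fold change of 1.55 and the parvin Parvb with 2.36, the latter from 1 to 5 counts to 13 to 21 counts. Apbb1ip (RIAM) and Rap1a, which bring talin to the membrane, fell by 0.44 and 0.35 on the log2 scale, and Lims1 (PINCH1), the partner of integrin-linked kinase, by 0.39. Rap1a had 42.8 and 33.5 CPM in untreated and treated cells. Its more abundant relative Rap1b had 272 and 258 CPM and was not called (log2 fold change -0.07, FDR 0.0813).

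Of 18 genes for integrin partners and traffic, 17 were tested, 8 rose, 8 fell and 1 was not called, with a median log2 fold change of -0.03. The shares over all genes tested were 37.6% higher and 38.0% lower. Nrp1, a co-receptor for semaphorins and VEGF, had 29.8 ± 2.08 CPM in untreated and 238 ± 11.5 CPM in treated cells, a log2 fold change of 2.99 (SE 0.0569, likelihood ratio statistic 2654). The endocytic receptor Lrp1 and the urokinase receptor Plaur rose with 1.74 and 1.28. Transglutaminase 2 (Tgm2), which binds β1 integrins and fibronectin, fell by 0.95 on the log2 scale, the endocytic adaptor Dab2 by 0.62 and the tetraspanin Cd151 by 0.62.

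The genes with the pattern most like that of Itgb3 over the 8 libraries, by the Euclidean distance of log2 CPM centred on the untreated mean, were Inhbb, which encodes the βB chain of inhibin and activin (distance 0.227), the cytochrome P450 Cyp1b1 (0.252) and the insulin-like growth factor binding protein Igfbp7 (0.280). The median distance over the 13818 genes was 4.20. For Itgb8 they were Pkhd1l1, a large membrane protein gene related to fibrocystin (0.380), Igfbp4 (0.488) and the sialomucin Podxl (0.526), with a median distance of 5.98. The distance takes no account of the level, which was 131 CPM for Pkhd1l1 and 46.2 CPM for Itgb8 in untreated cells.

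The promoter bases of RefSeq on GRCm38.p6 are shown for Itgb8 and Itgb5, the RGD-binding β chains with the smallest FDRs in each direction. They are the 250 bases before the RefSeq start site, at chr12:119238277-119238526 on the - strand and chr16:33829415-33829664 on the + strand. The Itgb8 bases lie inside the gene as GENCODE M21 places it, since its - strand span begins at 119238802. Capitals mark CAGAC, a short element that SMAD proteins can bind, searched on both strands as CAGAC and GTCTG.
Itgb8: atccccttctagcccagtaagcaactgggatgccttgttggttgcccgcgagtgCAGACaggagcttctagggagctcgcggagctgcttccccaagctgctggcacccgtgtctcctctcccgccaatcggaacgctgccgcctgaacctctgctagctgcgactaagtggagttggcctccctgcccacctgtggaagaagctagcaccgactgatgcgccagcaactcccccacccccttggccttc
Itgb5: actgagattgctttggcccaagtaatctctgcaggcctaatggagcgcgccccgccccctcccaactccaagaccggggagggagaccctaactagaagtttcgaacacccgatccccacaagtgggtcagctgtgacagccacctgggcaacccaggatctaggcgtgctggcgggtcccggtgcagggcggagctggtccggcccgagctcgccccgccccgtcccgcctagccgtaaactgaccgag
Itgb8, which fell, held 1 such match, Itgb5, which rose, held 0 and Itgb1, which also rose, held 3, and 42.2% of all 32851 promoters of this length held at least 1. The longer palindrome GTCTAGAC, the AP-1 element TGANTCA and GGCGCC, each searched on both strands, were in neither Itgb8 nor Itgb5, and Itgb1 held 1 GGCGCC. The 3 motifs were in 0.167%, 6.75% and 9.59% of all promoters.

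The treatment was visible in TGFβ response genes, since the feedback inhibitor Smad7 and the repressor Skil rose with log2 fold changes of 0.89 and 0.63. Total counts per library were between 18952504 and 26386941. The label of the cells was only partly borne out by markers of lymphatic and blood endothelium, of which 4 of 12 were tested. Pdpn had 342 and 313 CPM, Flt4 21.6 and 29.3 CPM and Kdr 11.6 and 22.1 CPM in untreated and treated cells, whereas Prox1, Lyve1, Pecam1 and Cdh5 had 0 to 5 counts and Ccl21a and Tie1 had 0 counts in every library. Markers of fibroblasts and mural cells summed to 8857 to 11190 CPM in untreated and 12650 to 14040 CPM in treated libraries. Of their 9 tested genes 6 were higher and 2 lower, beside 37.6% and 38.0% of all genes tested. The 6 include Myh11, which passed the filter on low counts only through its treated libraries. Leukocyte markers summed to 15.8 to 18.8 and 31.7 to 33.9 CPM, with the pan-leukocyte gene Ptprc at 0 or 1 count. The fibroblast and leukocyte sums were thus higher in every treated library. Most of the fibroblast sum was Col1a1 and Col1a2. Col1a1 went from 3459 ± 611 to 6057 ± 530 CPM, while Col1a2, with 5497 ± 474 and 5195 ± 223 CPM, was not called. The 2 lower genes were Pdgfra, from 160 to 57.8 CPM, and Dcn, from 312 to 83.0 CPM, so the markers did not move together. The endothelial sum was 357 to 394 CPM in untreated and 360 to 370 CPM in treated libraries, which overlap. Most of that sum was Pdpn, which was called lower with a log2 fold change of -0.13. Flt4 and Kdr were called higher, with 0.435 and 0.93. The part of these lists in the results was not tested.

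Reads could be shared between few of the 9 genes and their neighbours. Of stretches of 75 bases in the transcripts, 5.14% of those of Itgav occurred also in Gm13684 on the opposite strand, which had 0 counts. For Itgb5, 6.48% occurred also in Gm38317, whose counts are not given here. The share for Itga8 was 3.66%, with an antisense gene at 0 counts, and it was 0 for the remaining 6 genes.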

How the data were processed

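SV-LEC libraries were made with a stranded poly(A) kit and read as single ends of 75 bases. The submitters' processing notes name bcl2fastq 2.20.0.422, STAR 2.7.3a and featureCounts 1.5.1 and the GRCm38 build. The authors deposited raw counts of reads per gene without normalization. The annotation release and the use of strand in counting are not given in the sources used here. The count table had 0 columns of other samples.

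Samples were grouped by their labels. The tests were run with edgeR 4.0.16 under R 4.3.3, using filterByExpr, TMM, glmFit and glmLRT, with Benjamini-Hochberg FDRs over 13818 genes, a threshold of 0.05 and a prior count of 0.125 for log2 fold changes. The likelihood ratio test was taken because the study used it. The fit was tested on simulated data. Within groups the 12 pairs of libraries differed by more than sampling noise, with a chi-square per degree of freedom between 2.37 and 7.84, so each library counted as 1 replicate. The replicate numbers were taken to pair libraries only in an alternative fit. Shares and ratios were compared by exact two-sided permutation tests, with 0.5 added to counts for ratios. Gene positions, exonic lengths and coding sequences came from GENCODE M21, and 148 of 148 listed genes were matched. A promoter entry was found for 8 of the 9 integrin genes.

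The members and gene lists were chosen with earlier results of these data known. The genes open to naming were the 9 members, Fn1, Vtn, Spp1, Tgfb1, Tgfb2, Tgfb3, Ltbp1, Lrrc32, Nrros, Tln1, Fermt1, Fermt2 and Fermt3, the 3 called genes with the largest changes in each direction of each list, the 3 nearest genes of Itgb3 and Itgb8, Smad7, Skil and 1 further gene listed by name in the rule, which is not reported here. Marker genes are named where they bear on a member or on a marker list. Itgb4, Itga6, Itga11 and Itga10 are named beside the chains of their kind that fell, and Rap1b beside Rap1a. Alternatives were the quasi-likelihood test, DESeq2 1.42.0, its size factors in edgeR, total counts alone, no filter, a filter of 1 CPM in 4 libraries, a prior count of 2, the replicate block, each library left out, other gene lengths for shares and 0 added for ratios.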

Additional observations from a re-analysis of the deposited data

Results flagged for a closer look

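Among 46 groups of 4 values that were examined for a sample standing apart from its group, 1 was found. Itga8 made up 0.00993% of the summed RPKM of the α chains in untreated replicate 1 and 0% in the other 3 untreated libraries, which rests on 1 count against 0. A value standing apart in this way in 1 of 46 groups is no more than chance alone gives at this threshold.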

How the results depend on the processing

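The count of members called, 6 higher and 1 lower, and the direction and call of each of the 7 members were kept in 16 of 16 alternative fits, except that 8 were called higher without a filter on low counts, the added ones being Itga8 and Itgb6 at or under 3 counts. The only count that moved beyond 1.5 times was that of the latent TGFβ complex genes called lower, which was 2 in place of 1 with total counts alone, where Tgfb2 was called with a log2 fold change of -0.12 (FDR 0.022). With each library left out in turn, between 5111 and 5301 genes rose and between 5091 and 5245 fell.

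Same-numbered libraries did not deviate together, with correlations of -0.193 to -0.034, so the numbers were not taken as pairs. With the replicate block 5075 genes rose and 5077 fell, and 6 members rose and 1 fell. No sample correlated best with its own number. With 4 pairs, or with a library left out, the exact tests of shares and ratios cannot pass the threshold after adjustment, so those tests say nothing of stability. The ratio of Itgb8 to Itgb6 could not be computed with 0 added. Itga8, Itgb6, Vtn and Nrros had at most 4 counts in any library, and no change in them could be measured at this depth.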
